A study of Mus musculus with 24 samples.

Results

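Heart libraries labelled Acadl KO / Acadvl wt (n = 4) were compared with heart libraries labelled Acadl Het / Acadvl wt (n = 4), a choice by genotype label that takes 8 of the 24 libraries of the series. Acadl encodes long-chain acyl-CoA dehydrogenase (LCAD) and Acadvl the related enzyme for very long chains. Both groups carry the wt Acadvl label, so only the Acadl label differs between them: KO, meaning knockout, against Het, meaning heterozygote. Neither group is wild type for Acadl, so the Acadl wt / Acadvl wt hearts (n = 4) are given as a further level where it helps. All mice were male, 14 weeks old and on chow, of a mixed strain that is mostly C57BL/6N with some 129. The construction of the alleles and the exons they remove are not given in the sources used here. Whether each library is a different mouse is not stated. The p-values measure the spread between libraries of a genotype, estimated over all 24 libraries of the series, and that spread may be technical.

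LCAD and its very long-chain counterpart catalyse the opening dehydrogenation of long-chain fatty acids inside mitochondria, the main fuel route of the adult heart. The integrated stress response, which the series title names, is the pathway by which kinases that sense stress or uncharged transfer RNA phosphorylate the translation factor eIF2-alpha. General protein synthesis then slows, while the messenger RNA of the transcription factor ATF4 is translated more, and ATF4 turns on genes of amino acid uptake, amino acid synthesis and tRNA charging.

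PolyA RNA of the heart was read as counts per gene. Total counts of the 8 libraries ran from 34320838 to 50899683. RNA was isolated in 2 batches, and the labelled KO group had 3 libraries in batch 2 and 1 in batch 1 (replicate 4), while the Het group had 2 in each (replicates 1 and 2 in batch 2, 3 and 4 in batch 1). Batch was a term of the fit. Levels are CPM, counts normalised to the TMM-scaled library total, listed in the order of replicates 1 to 4. Differences are log2 values of labelled KO minus Het from edgeR's quasi-likelihood test, with the standard error (SE) and the Benjamini-Hochberg adjusted p over 15804 genes. A gene was called at an adjusted p under 0.05.

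The targeted gene did not follow its label. Acadl (mm10 chromosome 1, 66830839 to 66863309, minus strand) had 1923, 2100, 1856 and 1697 CPM in the libraries labelled KO, against 1405, 1625, 1558 and 1608 CPM in Het and 1324 to 1412 CPM in wild type. The labelled KO libraries were therefore the higher ones, with no overlap (log2 difference 0.28 ± 0.07 (SE), adjusted p = 0.00263). The counts are per gene over all exons, so a transcript that lacks part of its sequence would still be counted, and this check does not settle what the allele does. The groups are called here by their labels, and each direction below is that of the libraries labelled KO. Acadvl had 2222, 2429, 1915 and 1893 CPM in labelled KO and 1550, 1743, 1638 and 1597 CPM in Het (log2 difference 0.37 ± 0.12 (SE), adjusted p = 0.0174), and it was no longer called without labelled KO replicate 2 (log2 difference 0.32). Of the genes near Acadl, which tend to be inherited with it on a mixed strain, 9 of 33 were called within 5 Mb on either side (27.3%) and 39 of 124 within 10 Mb (31.5%), against 34.8% of all genes tested. Of the 9 called within 5 Mb, 4 were higher and 5 lower. Myl1, a myosin light chain gene 0.088 Mb from the centre of Acadl, had 4.24, 5.99, 3.002 and 3.65 CPM in labelled KO, 23.2, 23.3, 22.3 and 21.9 CPM in Het and 29.5 to 33.4 CPM in wild type, so that Het lay between the others (log2 difference -2.44 ± 0.22 (SE), adjusted p = 1.95e-07). Lancl1, 0.173 Mb from that centre, had 23.75 CPM in labelled KO, 29.02 CPM in Het and 35.79 CPM in wild type on average (log2 difference -0.27 ± 0.07 (SE), adjusted p = 0.00496). Whether the allele itself or sequence inherited with it underlies these values was not tested.

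The difference between the groups reached across the transcriptome. Of the 15804 genes, 5506 were called, 2865 of them higher (18.1%) and 2641 lower (16.7%) in labelled KO. The CPM values of both groups did not overlap for 5103 genes (32.3%). The median log2 difference over all genes was -0.01. Of the called genes, 335 had a difference of at least 1 and 587 of -1 or less. The first principal component took 47.2% of the variance of the 8 libraries and put labelled KO at 17.6 to 58.7 and Het at -42.8 to -25.6. A count of members in any gene list has to be read against these shares, and a count under another setting against those of that setting. Within batch 2, 14.3% of genes were higher and 11.6% lower, and in a fit of only the 8 libraries 15.9% and 12.4%. A filter of a mean of 5 CPM gave 22.4% and 20.9%. With 1 of the 8 libraries left out, 15.3% to 18.7% were higher and 11.3% to 16.8% lower.

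The markers of heart muscle were abundant, as the tissue label says. Summed ventricular cardiomyocyte markers ran from 85860 to 105700 CPM in labelled KO and from 83120 to 98660 CPM in Het, and 1 of 12 was called. Endothelial markers were called in 1 of 12 cases, fibroblast markers in 1 of 12, and the 9 epicardial, 8 erythroid, 6 lymphocyte and 14 hepatocyte markers tested in 0 by edgeR, limma voom and DESeq2. At an unadjusted p under 0.05 edgeR gave 1 epicardial, 2 erythroid, 0 lymphocyte and 0 hepatocyte markers. Their log2 differences were not all near 0. They ran from -0.133 to 0.552 (epicardial, median 0.266), 0.486 to 1.038 (erythroid, median 0.532) and -1.199 to -0.174 (lymphocyte, median -0.483). Hepatocyte markers ran from -0.106 to 2.485 (median 1.039). Summed erythroid markers ran from 2111 to 5233 CPM in labelled KO and from 1461 to 3533 CPM in Het. Adipocyte markers summed to 1096 to 2031 CPM in labelled KO and 658.2 to 891.6 CPM in Het, with Fabp4 and Pparg called, while the fat cell markers Adipoq and Plin1 had 0.329 CPM in labelled KO and 0.491 CPM in Het and 0.215 CPM in labelled KO and 0.272 CPM in Het. The liver gene Alb had 0.107, 61.7, 13.6 and 0.213 CPM in labelled KO and 1.81, 0.195, 5.66 and 6.62 CPM in Het, so that replicates 2 and 3 of labelled KO stood above 10 CPM. Without all libraries above that level, 2 labelled KO against 4 Het libraries were left, and 3577 genes were called. These were 22.6% of the genes tested in that selection, 12.5% higher and 10.1% lower. Counts and calls given below without the libraries above 10 CPM of Alb come from that selection.

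Hearts labelled KO held messenger RNA of the 2 secreted stress hormones of this pathway at levels far above Het. Fgf21, a hormone of fasting and mitochondrial stress, had 6.55, 2.46, 8.198 and 0.616 CPM in labelled KO, against 0.0549, 0.0975, 0.134 and 0.133 CPM in Het. The Het values rest on 2 to 7 counts per library, so the fold is imprecise (log2 difference 5.25 ± 1.04 (SE), adjusted p = 6.34e-04). Gdf15, a circulating stress cytokine of the TGF-beta superfamily, had 39.7, 24.7, 50.2 and 10.9 CPM in labelled KO and 2.17, 1.46, 1.77 and 1.81 CPM in Het (log2 difference 4.11 ± 0.63 (SE), adjusted p = 7.25e-05). The groups did not overlap for either hormone, and Het stood close to wild type (0.0593 and 1.72 CPM on average).

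Of 10 stress response transcription factors, 7 were higher and 0 lower, with a median log2 difference of 0.80. Atf4 itself had 381, 267, 344 and 144 CPM in labelled KO, against 75.98, 71.3, 62.4 and 102 CPM in Het, with no overlap (log2 difference 1.76 ± 0.20 (SE), adjusted p = 3.67e-06). Atf5, another factor of the pathway, had 197, 97.9, 144 and 60.5 CPM in labelled KO and 52.5, 44.8, 42.9 and 56.99 CPM in Het (log2 difference 1.25 ± 0.30 (SE), adjusted p = 0.003599). Ddit3, which encodes CHOP, had 29.9, 20.1, 43.9 and 23.9 CPM in labelled KO and 13.8, 10.1, 12.3 and 10.8 CPM in Het (log2 difference 1.37 ± 0.25 (SE), adjusted p = 3.15e-04). All values of labelled KO lay above all of Het for Atf5 and Ddit3. Atf3 had 95.1, 49.4, 178 and 14.2 CPM in labelled KO and 14.7, 16.5, 17.9 and 15.9 CPM in Het (log2 difference 2.16 ± 0.54 (SE), adjusted p = 0.00484). Here replicate 4 of labelled KO lay below every Het library, while the other 3 lay far above them, and within batch 1 the direction turned (log2 difference -0.24).

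The kinases that start the response differed little. Eif2ak4 (GCN2, which senses uncharged tRNA) had 17.9, 19.1, 14.7 and 19.7 CPM in labelled KO and 14.8, 14.3, 14.5 and 16.4 CPM in Het (log2 difference 0.26 ± 0.12 (SE), adjusted p = 0.109). Eif2ak3 (PERK, the kinase of the endoplasmic reticulum) had 11.8, 9.99, 9.16 and 13.3 CPM in labelled KO and 13.99, 10.4, 13.8 and 12.1 CPM in Het (log2 difference -0.15 ± 0.12 (SE), adjusted p = 0.356). Neither was called, and the groups overlapped for both. Eif2ak1 (HRI, which relays mitochondrial stress) was higher by 0.24 ± 0.09 (SE), adjusted p = 0.0377, and Eif2ak2 (PKR, which senses double-stranded RNA) was lower, with a log2 difference of -0.45 ± 0.15 (SE), adjusted p = 0.0234. Those calls were lost without any 1 of 6 libraries for Eif2ak1 (log2 difference 0.22 to 0.25) and of 3 for Eif2ak2 (-0.40 to -0.37). Of all 8 kinases and phosphatase subunits listed 4 were higher and 1 lower, with 2 higher without Het replicate 1. The regulatory subunits of the phosphatase that reverses the mark were both higher. Ppp1r15a (GADD34) had 161, 131, 144 and 77.95 CPM in labelled KO and 49.6, 65.5, 60.02 and 84.2 CPM in Het (log2 difference 0.94 ± 0.19 (SE), adjusted p = 9.32e-04), with replicate 4 of labelled KO below Het replicate 4. Ppp1r15b (CReP) had 70.5 CPM in labelled KO and 44.6 CPM in Het on average (log2 difference 0.64 ± 0.10 (SE), adjusted p = 5.39e-05). Kinase activity and eIF2-alpha phosphorylation were not measured. The plot of stress gene levels sets the labelled KO libraries beside Het and wild type for the genes of this and the next paragraphs.

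**Figure D1:**
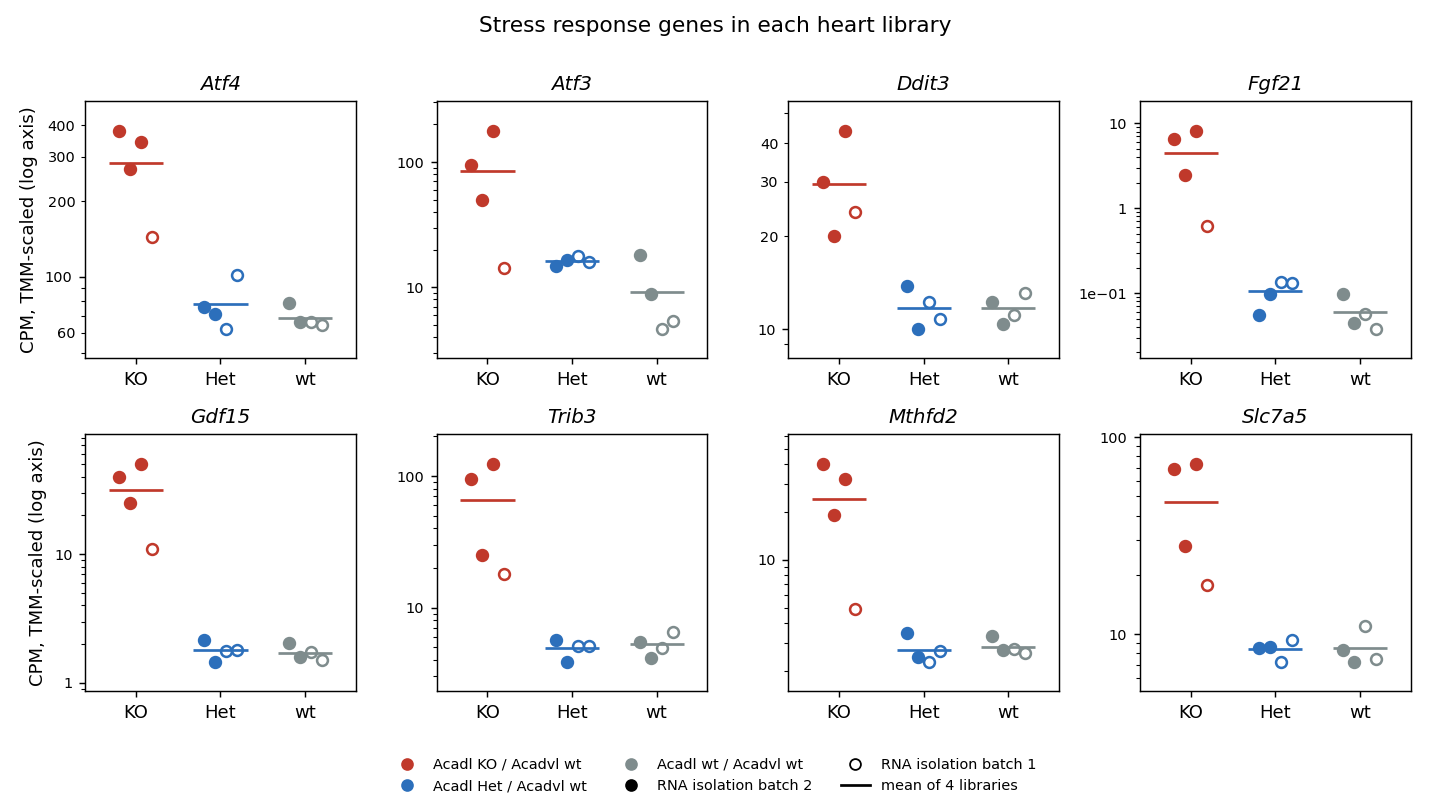
Level of 8 stress response genes in each library, in TMM-scaled CPM on a log axis, with 1 point per library, filled for RNA isolation batch 2 and open for batch 1, and a line at the mean of 4. For Fgf21, Gdf15, Trib3, Mthfd2 and Slc7a5 all 4 libraries labelled Acadl KO lie above all Acadl Het libraries, and the open labelled KO point, replicate 4, is the lowest of its group in every panel but Ddit3.

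Of 32 ATF4 target genes, 21 were higher and 1 was lower, with a median log2 difference of 1.03. Trib3, a pseudokinase that feeds back on the pathway, had 94.8, 25.2, 124 and 18.1 CPM in labelled KO, against 5.68, 3.88, 5.11 and 5.13 CPM in Het (log2 difference 3.56 ± 0.56 (SE), adjusted p = 8.87e-05). Mthfd2, a mitochondrial enzyme of one-carbon metabolism, had 40.2, 19.1, 32.3 and 4.88 CPM in labelled KO and 3.46, 2.44, 2.28 and 2.68 CPM in Het (log2 difference 2.85 ± 0.41 (SE), adjusted p = 3.399e-05). Sesn2, a restraint on the growth kinase complex mTORC1, had 31.4, 10.9, 38.6 and 6.94 CPM in labelled KO and 4.31, 3.61, 5.16 and 3.38 CPM in Het (log2 difference 2.24 ± 0.41 (SE), adjusted p = 3.58e-04). In these 3 genes the groups did not overlap, but the labelled KO libraries were widely spread, with replicates 1 and 3 high and replicate 4 low. Asns, asparagine synthetase, had 26.3 CPM in labelled KO, 5.52 CPM in Het and 1.71 CPM in wild type on average (log2 difference 2.09 ± 0.40 (SE), adjusted p = 5.001e-04). It is one of 2 called members whose Het libraries all lay above the wild-type ones. The member that was lower was Psph, the last enzyme of serine synthesis (3.001 CPM in labelled KO and 4.57 CPM in Het, log2 difference -0.61 ± 0.16 (SE), adjusted p = 0.00632). Some members, Slc7a11, Pck2, Shmt2 and Aldh1l2 among them, were not called (log2 differences 0.31, 0.29, 0.18 and 0.27).

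The 4 libraries labelled KO kept an order of their own over these targets. Replicate 4, the only one of batch 1, was the lowest of its group for 21 of the 21 higher ATF4 targets, 15 of the 18 higher tRNA synthetases and 21 of the 27 higher nucleolar genes. Replicate 1 was the highest of its group for 10 of the 21 ATF4 targets and replicate 3 for the other 11. Over the 14 higher PPAR-alpha targets the order differed: replicate 2 was highest for 11 of them and replicate 3 lowest for 10. Within batch 2 (3 labelled KO against 2 Het) the log2 difference was 6.17 for Fgf21, 4.41 for Gdf15, 4.10 for Trib3 and 2.17 for Atf4, each called. Within batch 1 (1 against 2, the lone library being assumed to vary like the other groups) it was 2.19, 2.61, 1.83 and 0.81, none of them called. With 1 labelled KO library in batch 1, that library and the batch cannot be told apart.

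Of 22 cytosolic aminoacyl-tRNA synthetases and their scaffold proteins, which load amino acids onto tRNA, 18 were higher and 0 lower, with a median log2 difference of 0.55. Aars, for alanine, had 259.9, 219.8, 225 and 174 CPM in labelled KO and 82.6, 90.8, 69.8 and 84.3 CPM in Het (log2 difference 1.38 ± 0.12 (SE), adjusted p = 1.32e-07). Yars, for tyrosine, had 107, 76.7, 82.4 and 67.2 CPM in labelled KO and 34.3, 32.4, 30.3 and 33.7 CPM in Het (log2 difference 1.303 ± 0.14 (SE), adjusted p = 1.91e-06). Cars, for cysteine, had 87.98, 56.4, 68.6 and 46.9 CPM in labelled KO and 24.4, 25.2, 24.7 and 30.7 CPM in Het (log2 difference 1.27 ± 0.18 (SE), adjusted p = 2.25e-05). All labelled KO values lay above all Het values for the 3 enzymes. Kars, Qars, Wars and the scaffold gene Aimp1 were not called (log2 differences -0.01, -0.14, -0.15 and 0.04). Among 17 mitochondrial synthetases, 6 were higher and 3 lower, with a median of 0.12, and the largest differences were small: Rars2 0.53, Mars2 0.47 and Yars2 0.44.

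Amino acid transporters split by member. Of 22 tested, 10 were higher and 4 lower, and the lower count was 1 without labelled KO replicate 1 and 2 without Het replicate 1 or labelled KO replicate 2. Slc7a5 (LAT1, a carrier of large neutral amino acids) had 68.8, 27.98, 73.2 and 17.8 CPM in labelled KO and 8.53, 8.66, 7.26 and 9.36 CPM in Het (log2 difference 2.36 ± 0.35 (SE), adjusted p = 4.95e-05). Slc1a4, a carrier of small neutral amino acids, had 9.298, 3.05, 16.4 and 4.404 CPM in labelled KO and 2.55, 1.78, 1.92 and 2.04 CPM in Het (log2 difference 1.94 ± 0.45 (SE), adjusted p = 0.00232). Slc6a9, a glycine transporter, had 18.3, 5.43, 19.5 and 4.71 CPM in labelled KO and 3.81, 3.76, 3.47 and 3.1 CPM in Het (log2 difference 1.62 ± 0.42 (SE), adjusted p = 0.00609). The groups did not overlap for these 3, and labelled KO replicates 1 and 3 were again the high ones. In serine and one-carbon metabolism 6 of 16 genes were higher and 3 lower. Shmt1, the cytosolic serine hydroxymethyltransferase, had 22.9, 32.4, 34.03 and 27.1 CPM in labelled KO and 11.6, 9.85, 13.7 and 10.9 CPM in Het (log2 difference 1.297 ± 0.16 (SE), adjusted p = 5.74e-06). Psat1, of serine synthesis, was called (11.3 CPM in labelled KO and 4.24 CPM in Het, log2 difference 1.25 ± 0.32 (SE), adjusted p = 0.00536) although its replicate 4 of labelled KO overlapped Het, and within batch 1 its direction turned (log2 difference -0.17).

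The promoters of the higher ATF4 targets were searched for TGATGNAA, the core of the C/EBP-ATF response element that ATF4 binds with its partners, on both strands from 250 bases before to 50 after each start site. Of the 21 genes, 18 had a promoter in the RefSeq table, and 7 of the 18 held a match (38.9%). Of the 10 list members with a promoter that were not higher, 3 held one (30%). Of the 11 higher cytosolic tRNA synthetases with a promoter, 5 held one (45.5%), against 2.91% of the 11668 genes tested that have a promoter and 4.51% of the 27025 genes of the table. TGACNNNGC, the core of the antioxidant response element that NRF2 binds, was matched in 5 of 10 higher NRF2 targets (50%), in 4 of 8 other NRF2 list members (50%) and in 16.9% of the genes tested. The lists were built from known targets, so a high share is a property of the lists and not of these hearts, and a match in letters is not a measured site. The stretches below show where such matches stand, each 250 bases long, 5′ to 3′ on the gene's strand, ending at the base before the start site, with the match in capitals (RefSeq promoters, build GRCm38.p6).
Fgf21 (chr7:45615491-45615740, minus strand): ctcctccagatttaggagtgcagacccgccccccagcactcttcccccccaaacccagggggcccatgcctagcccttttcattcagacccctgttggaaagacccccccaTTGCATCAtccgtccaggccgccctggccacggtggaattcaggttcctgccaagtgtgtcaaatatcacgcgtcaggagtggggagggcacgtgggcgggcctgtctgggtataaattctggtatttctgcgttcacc
Herpud1 (chr8:94386179-94386428, plus strand): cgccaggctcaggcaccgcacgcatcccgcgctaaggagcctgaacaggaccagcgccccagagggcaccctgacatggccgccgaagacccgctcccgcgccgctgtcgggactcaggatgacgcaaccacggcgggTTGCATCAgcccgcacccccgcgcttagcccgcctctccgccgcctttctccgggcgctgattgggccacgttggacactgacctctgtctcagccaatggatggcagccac
Aars (chr8:111033592-111033841, plus strand): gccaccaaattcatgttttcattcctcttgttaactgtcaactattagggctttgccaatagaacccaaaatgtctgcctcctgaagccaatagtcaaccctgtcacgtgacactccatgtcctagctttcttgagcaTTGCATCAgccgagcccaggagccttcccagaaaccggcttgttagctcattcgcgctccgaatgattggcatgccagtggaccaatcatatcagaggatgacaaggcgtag
Gclm (chr3:122245307-122245556, plus strand): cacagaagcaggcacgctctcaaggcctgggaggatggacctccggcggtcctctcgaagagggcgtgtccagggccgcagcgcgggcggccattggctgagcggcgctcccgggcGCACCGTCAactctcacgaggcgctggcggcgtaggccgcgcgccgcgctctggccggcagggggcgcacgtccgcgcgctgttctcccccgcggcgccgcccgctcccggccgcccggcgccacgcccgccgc
The element matches begin 139 bases before the start in Fgf21 and 112 bases before it in both Herpud1 and Aars, all 3 as TTGCATCA, the reverse complement of the element. In Gclm the antioxidant element begins 134 bases before the start. The elements were searched separately, and 2 of the stretches match both: the antioxidant element also begins, in lower case here, 179 bases before the start in Herpud1 and 13 bases before it in Aars.

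Of 20 NRF2 target genes, which make and use glutathione and reduce oxidised proteins, 12 were higher and 0 lower, with a median log2 difference of 0.82. Srxn1 (sulfiredoxin) had 393, 252, 177 and 118 CPM in labelled KO and 40.9, 42.2, 34.1 and 51.6 CPM in Het (log2 difference 2.39 ± 0.35 (SE), adjusted p = 4.22e-05). Gsta1, a glutathione transferase with close copies that may share its reads, had 28.99, 10.6, 13.8 and 16.7 CPM in labelled KO and 4.61, 2.98, 1.88 and 1.25 CPM in Het (log2 difference 2.695 ± 0.38 (SE), adjusted p = 2.76e-05). Osgin1 had 33.2, 18.5, 22.6 and 14.5 CPM in labelled KO and 6.72, 4.85, 6.28 and 5.93 CPM in Het (log2 difference 1.81 ± 0.24 (SE), adjusted p = 1.39e-05). None of the 3 overlapped between groups. Gclm, a subunit of the enzyme that starts glutathione synthesis, had 103 CPM in labelled KO and 53.4 CPM in Het on average (log2 difference 0.96 ± 0.25 (SE), adjusted p = 0.00507).

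Genes of the endoplasmic reticulum were more often lower than higher. Of 20 chaperones and stress genes of that compartment, 2 were higher and 8 lower, with a median log2 difference of -0.16. The higher ones were Herpud1 (699.9 CPM in labelled KO and 250.3 CPM in Het, log2 difference 1.41 ± 0.24 (SE), adjusted p = 1.64e-04) and Dnajb9 (86.3 CPM in labelled KO and 40.5 CPM in Het, log2 difference 1.004 ± 0.16 (SE), adjusted p = 6.11e-05). Pdia4, a protein disulfide isomerase, had 11.6, 9.696, 13.8 and 16.6 CPM in labelled KO and 29.7, 22.7, 23.4 and 24.2 CPM in Het (log2 difference -0.94 ± 0.18 (SE), adjusted p = 5.29e-04). Hspa5, the main chaperone of the compartment, was not called (399.9 CPM in labelled KO and 355 CPM in Het, log2 difference 0.17 ± 0.13 (SE), adjusted p = 0.321). Without the Alb-rich libraries described above, 4 were lower. Among 14 mitochondrial chaperones and proteases 5 were higher and 0 lower: the largest differences were those of Afg3l2, an inner-membrane protease (337 CPM in labelled KO and 193 CPM in Het, log2 difference 0.78 ± 0.09 (SE), adjusted p = 3.002e-06), Hspe1 (116 CPM in labelled KO and 73.5 CPM in Het, log2 difference 0.62 ± 0.09 (SE), adjusted p = 2.03e-05) and Hspa9 (1147 CPM in labelled KO and 789.5 CPM in Het, log2 difference 0.50 ± 0.08 (SE), adjusted p = 5.49e-05). The plot of all list members shows how far single genes depart from the median of their list.

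**Figure D2:**
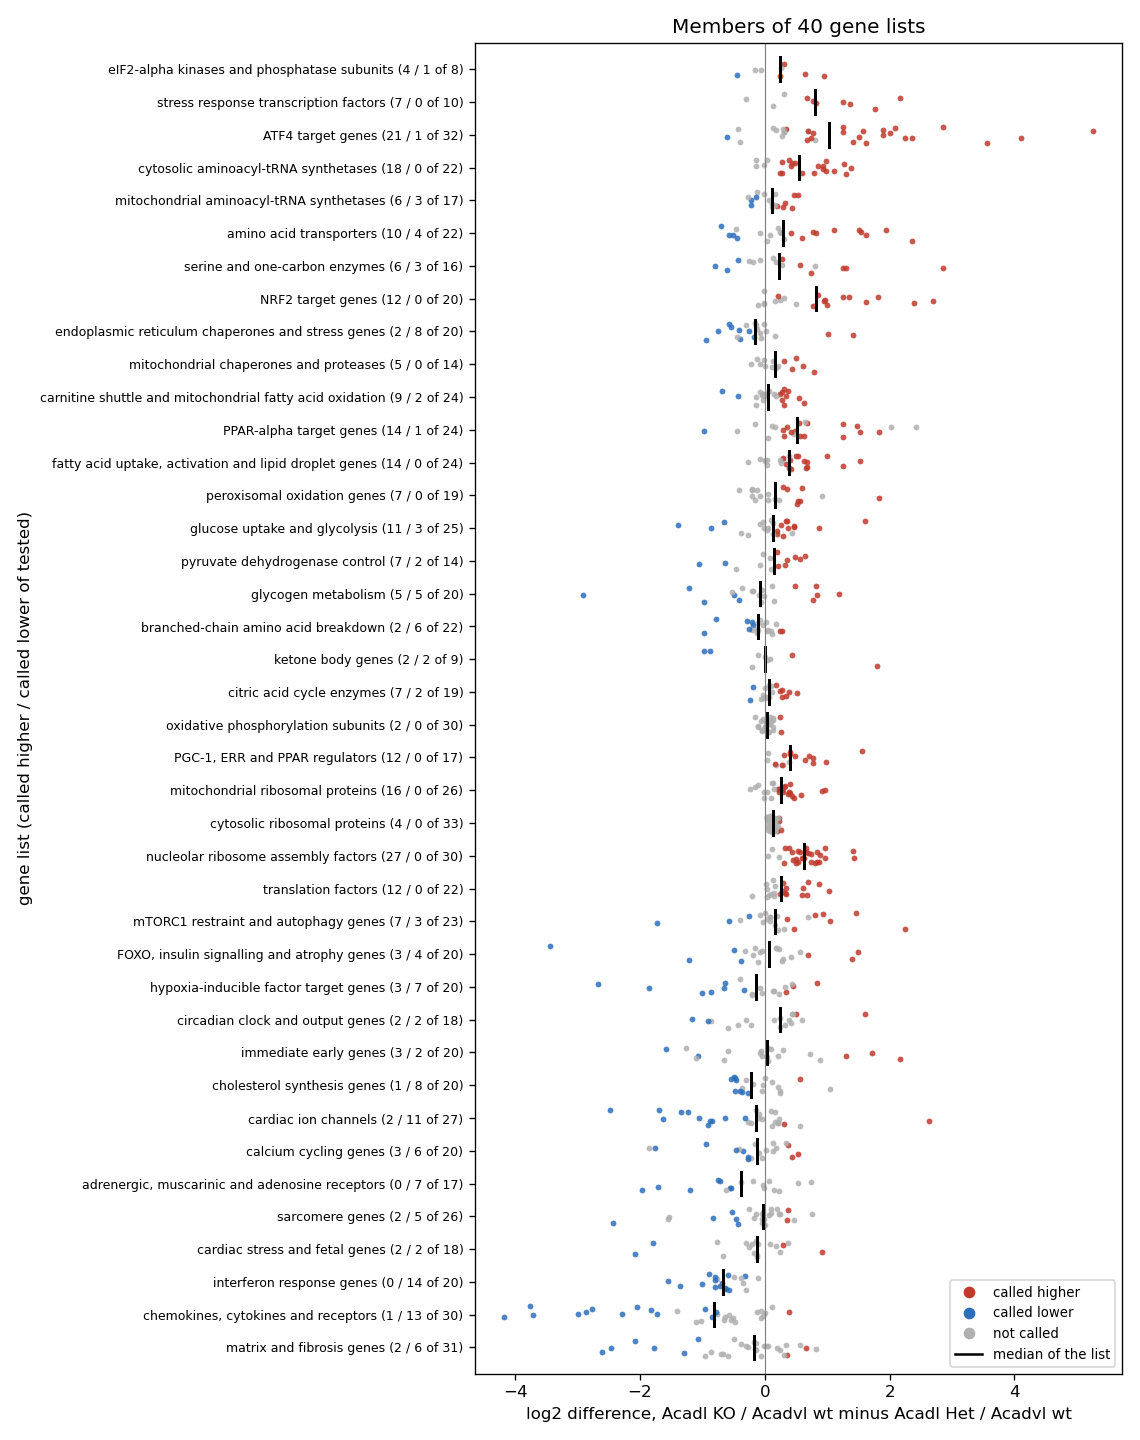
Log2 difference of every tested member of 40 gene lists, labelled Acadl KO minus Acadl Het, with 1 point per gene and a black line at the median of the list; red points were called higher, blue points lower, and grey points were not called. ATF4 targets, NRF2 targets and nucleolar ribosome assembly factors lie mostly right of 0, and chemokines and interferon response genes mostly left of it.

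Genes that make ribosomes were higher for all but 3 of those listed. Of 30 nucleolar ribosome assembly factors 27 were higher and 0 lower, with a median log2 difference of 0.62, and 26 did not overlap between groups. Gnl3 (nucleostemin) had 96.1, 94.9, 78.9 and 62.6 CPM in labelled KO and 27.1, 26.9, 26.9 and 39.9 CPM in Het (log2 difference 1.43 ± 0.16 (SE), adjusted p = 2.08e-06). Rrp12 had 183, 209.8, 146 and 137 CPM in labelled KO and 62.4, 60.2, 51.9 and 78.2 CPM in Het (log2 difference 1.41 ± 0.20 (SE), adjusted p = 2.94e-05). Wdr43 had 81.5, 79.3, 73.3 and 60.05 CPM in labelled KO and 34.8, 35.4, 34.9 and 41.97 CPM in Het (log2 difference 0.96 ± 0.11 (SE), adjusted p = 1.84e-06). In each of the 3, every library labelled KO stood above every Het library. Of the ribosomal proteins themselves, 4 of 33 cytosolic ones were higher and 0 lower, with a median of 0.13, and that count ran from 0 to 8 as single libraries were left out. Rpl8 was among them (369 CPM in labelled KO and 307 CPM in Het, log2 difference 0.26 ± 0.09 (SE), adjusted p = 0.02199), with 0.22 and no call without labelled KO replicate 1 or Het replicate 1.

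Of 22 translation factors 12 were higher and 0 lower. Eif4a1, the helicase that unwinds messenger RNA leaders, had 388, 445, 350.3 and 334 CPM in labelled KO and 171, 192, 174 and 202 CPM in Het (log2 difference 1.03 ± 0.11 (SE), adjusted p = 9.15e-07). Eif3a and Eif2s2, a subunit of eIF2 itself, differed by 0.86 (581 CPM in labelled KO and 310.4 CPM in Het) and 0.68 (152 CPM in labelled KO and 91.6 CPM in Het), both without overlap. Of 26 mitochondrial ribosomal proteins 16 were higher and 0 lower, with a median of 0.25. Mrps18b had 66.8, 73.8, 53.6 and 51.1 CPM in labelled KO and 29.7, 31.2, 27.9 and 35.7 CPM in Het (log2 difference 0.96 ± 0.12 (SE), adjusted p = 4.25e-06), and Mrps2 and Mrpl15 differed by 0.92 and 0.58. Without the libraries above 10 CPM of Alb 10 of the 26 were higher, and 7 of the 22 translation factors, where 12.5% of all genes were higher.

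Regulators of mitochondrial and lipid genes were higher in labelled KO. Of 17 members of the PGC-1, ERR and PPAR families and their partners, 12 were higher and 0 lower. Ppargc1a, the coactivator PGC-1-alpha, had 582, 623, 268 and 255 CPM in labelled KO, against 109.6, 143, 131 and 148 CPM in Het (log2 difference 1.56 ± 0.39 (SE), adjusted p = 0.00461). Replicates 1 and 2 of labelled KO were well above replicates 3 and 4, and all 4 were above Het. Esrra (ERR-alpha) had 317, 312, 218 and 263 CPM in labelled KO and 162, 169, 169 and 145 CPM in Het (log2 difference 0.77 ± 0.10 (SE), adjusted p = 1.17e-05). Pparg, better known from fat cells, had 38.4, 56, 25.8 and 41.7 CPM in labelled KO and 20.9, 16.97, 20.4 and 23.3 CPM in Het (log2 difference 0.98 ± 0.22 (SE), adjusted p = 0.00192).

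PPAR-alpha target genes were mostly higher, 14 of 24 against 1 lower, with a median log2 difference of 0.52. Ehhadh, the bifunctional enzyme of peroxisomal oxidation, had 129, 153, 125 and 131 CPM in labelled KO and 30.1, 35.2, 46.7 and 39.3 CPM in Het (log2 difference 1.83 ± 0.16 (SE), adjusted p = 1.32e-07). Plin5, which tethers lipid droplets to mitochondria, had 760.5, 961, 560.2 and 709 CPM in labelled KO and 235, 285, 275 and 229.9 CPM in Het (log2 difference 1.53 ± 0.15 (SE), adjusted p = 5.46e-07). Acot1, a cytosolic thioesterase of long-chain acyl-CoA with close copies, had 498, 467, 338 and 396 CPM in labelled KO and 111, 184, 139 and 189 CPM in Het (log2 difference 1.48 ± 0.15 (SE), adjusted p = 8.87e-07). The groups lay apart for all 3. Of 24 genes of fatty acid uptake, activation and lipid droplets 14 were higher and 0 lower. Plin2, a coat protein of lipid droplets, had 498, 479, 381 and 359 CPM in labelled KO and 164, 158, 147 and 265 CPM in Het (log2 difference 1.25 ± 0.22 (SE), adjusted p = 2.19e-04), with Het replicate 4 above the other Het libraries. Fabp4, a fatty acid carrier of fat cells and capillaries, had 1493, 1972, 1067 and 1493 CPM in labelled KO and 636, 761, 865 and 798 CPM in Het (log2 difference 0.99 ± 0.19 (SE), adjusted p = 3.91e-04).

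The fatty acid oxidation pathway in which LCAD works had a smaller median difference than the PPAR-alpha targets. Of 24 genes of the carnitine shuttle and mitochondrial oxidation 9 were higher and 2 lower, where 18.1% and 16.7% of all genes were. The median log2 difference was 0.04, close to that of all genes, although the share of higher genes was above that of all genes. The shuttle's entry enzyme Cpt1b had 1864, 1937, 1468 and 1670 CPM in labelled KO and 1159, 1103, 1164 and 1058 CPM in Het (log2 difference 0.62 ± 0.09 (SE), adjusted p = 2.94e-05), and its translocase Slc25a20 had 346 CPM in labelled KO and 235 CPM in Het on average (log2 difference 0.55 ± 0.10 (SE), adjusted p = 1.75e-04). Acad12, a member of the acyl-CoA dehydrogenase family, was lower, with 72.8, 67.7, 77.7 and 67.7 CPM in labelled KO and 105, 116, 117 and 123 CPM in Het (log2 difference -0.69 ± 0.10 (SE), adjusted p = 2.13e-05). The count of higher genes was 5 without labelled KO replicate 2 and 4 within batch 2. In peroxisomes 7 of 19 genes were higher and 0 lower, among them the transporter Abcd3 (278 CPM in labelled KO and 183 CPM in Het, log2 difference 0.59 ± 0.10 (SE), adjusted p = 1.47e-04). Oxidative phosphorylation subunits hardly moved: 2 of 30 were called, Cycs (0.24) and Ndufs7 (0.26), and both calls were lost without some single library (log2 differences down to 0.17 and 0.22).

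Glucose genes changed member by member. Of 25 genes of glucose uptake and glycolysis 11 were higher and 3 lower, and the count of higher genes was 2 within batch 2 and 7 without the libraries above 10 CPM of Alb. Pfkfb2, the heart form of the enzyme that sets the level of a fructose bisphosphate that activates glycolysis, had 439, 393, 267 and 306 CPM in labelled KO and 125, 102, 115 and 113 CPM in Het (log2 difference 1.61 ± 0.21 (SE), adjusted p = 1.51e-05). Pfkfb1, the form known from liver and muscle, went the other way, with 9.298, 12.9, 8.65 and 11.7 CPM in labelled KO and 22.3, 32.2, 38.3 and 21.9 CPM in Het (log2 difference -1.398 ± 0.27 (SE), adjusted p = 5.799e-04). Neither gene overlapped between groups. Pgam1, phosphoglycerate mutase, had 65.3 CPM in labelled KO and 35.4 CPM in Het on average (log2 difference 0.87 ± 0.14 (SE), adjusted p = 5.67e-05).

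At pyruvate dehydrogenase, the gate between glucose and the citric acid cycle, 7 of 14 genes were higher and 2 lower. Pdhb, a subunit of the enzyme, had 883, 1002, 798 and 817 CPM in labelled KO and 544, 595, 546 and 538 CPM in Het (log2 difference 0.64 ± 0.08 (SE), adjusted p = 5.55e-06). The inhibiting kinases Pdk1 and Pdk3 were the lower ones: Pdk1 had 178, 178, 194 and 180.2 CPM in labelled KO and 261, 294, 250.3 and 332 CPM in Het (log2 difference -0.64 ± 0.08 (SE), adjusted p = 5.42e-06), and Pdk3 had 1.41 CPM in labelled KO and 2.95 CPM in Het on average (log2 difference -1.05 ± 0.22 (SE), adjusted p = 9.56e-04). Pdk4, the kinase that fasting and fatty acids induce, had 10430, 10690, 8635 and 7047 CPM in labelled KO and 5098, 5726, 5807 and 8935 CPM in Het (log2 difference 0.49 ± 0.17 (SE), adjusted p = 0.0339). Its groups overlapped, its call was lost without any 1 of 5 libraries (log2 difference 0.36 to 0.46), and within batch 1 the difference was -0.06. The list's higher count was 4 without Het replicate 1 or labelled KO replicate 2. In the citric acid cycle 7 of 19 genes were higher and 2 lower, with Pcx, pyruvate carboxylase, at 0.51 (87.4 CPM in labelled KO and 61.1 CPM in Het), Dlst at 0.38 and Ogdh at 0.34. There 4 were higher once the Alb-rich libraries were left out, and 2 within batch 2.

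Phkg1, a catalytic subunit of the kinase that switches on glycogen breakdown in muscle, had 7.46, 7.29, 8.93 and 9.47 CPM in labelled KO, against 58.6, 65.1, 52.98 and 79.5 CPM in Het (log2 difference -2.92 ± 0.19 (SE), adjusted p = 3.83e-09). The groups were far apart, and wild type stood with Het at 56.3 to 69.9 CPM. Over the glycogen list of 20, 5 were higher and 5 lower. Ugp2, which makes the UDP-glucose for glycogen, was higher (594 CPM in labelled KO and 254 CPM in Het, log2 difference 1.19 ± 0.14 (SE), adjusted p = 3.002e-06), and Ppp1r3b, a glycogen-targeting phosphatase subunit, was lower (10.7 CPM in labelled KO and 25.2 CPM in Het, log2 difference -1.21 ± 0.35 (SE), adjusted p = 0.0115).

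Of 9 ketone body genes 2 were higher and 2 lower. Bdh1, the enzyme by which the heart burns ketone bodies, had 362, 505, 294 and 422 CPM in labelled KO and 123, 114, 88.8 and 127 CPM in Het, with no overlap (log2 difference 1.803 ± 0.27 (SE), adjusted p = 5.55e-05). Of 22 genes of branched-chain amino acid breakdown 2 were higher and 6 lower, or 3 lower without the libraries above 10 CPM of Alb. Ppm1k, the phosphatase that activates the pathway's dehydrogenase, had 68.4, 65.5, 84.8 and 78.97 CPM in labelled KO and 129, 168, 149 and 129.7 CPM in Het (log2 difference -0.97 ± 0.17 (SE), adjusted p = 1.604e-04). The plot of fuel gene levels shows the regulators, lipid, glucose and ketone genes by library.

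**Figure D3:**
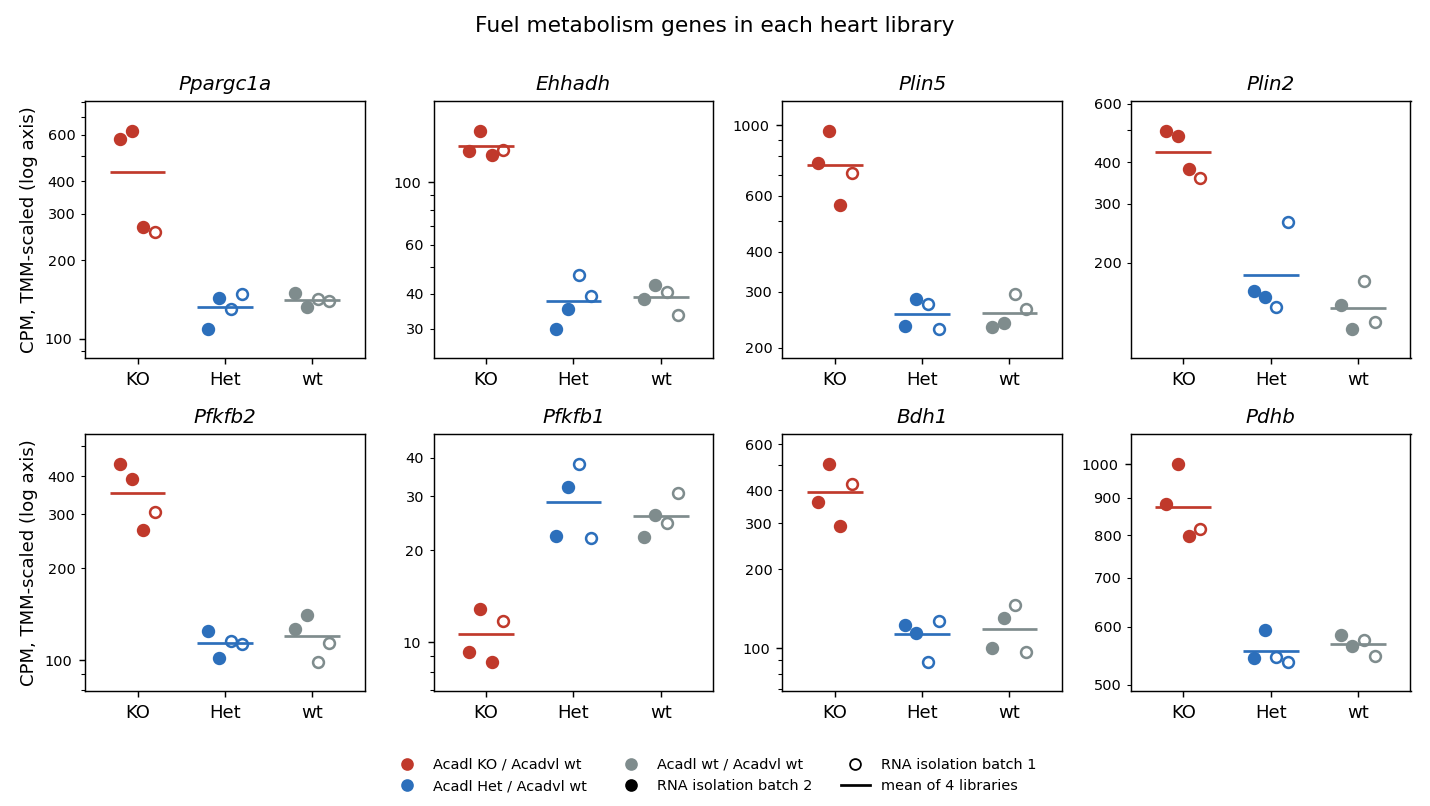
Level of 8 fuel genes in each library, in TMM-scaled CPM on a log axis, with 1 point per library and a line at the mean of 4, filled for RNA isolation batch 2 and open for batch 1. All 4 libraries labelled Acadl KO lie above all Acadl Het libraries for 7 of the genes and below them for Pfkfb1, and the Het and wild-type points overlap in every panel.

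Inflammatory genes were lower in labelled KO, but here the Het hearts were themselves above wild type. Of 30 chemokines, cytokines and their receptors 1 was higher and 13 lower, with a median log2 difference of -0.82. For all 13 lower ones the Het mean was above the wild-type mean, for 10 it was at least 2 times as high, and for 7 every Het library lay above every wild-type library. The labelled KO mean was below the wild-type mean for 12 of the 13. Ccl2, which recruits monocytes, had 1.62, 0.4504, 0.429 and 0.474 CPM in labelled KO, 16.2, 6.83, 5.45 and 11.1 CPM in Het and 1.79, 2.32, 0.674 and 3.18 CPM in wild type (log2 difference -3.72 ± 0.83 (SE), adjusted p = 0.00185). Its neighbour Ccl7 had 0.826, 0.185, 0.479 and 0.308 CPM in labelled KO, 11.5, 3.49, 2.52 and 7.13 CPM in Het and 0.356 to 1.74 CPM in wild type (log2 difference -3.77 ± 0.82 (SE), adjusted p = 0.00156). Cxcl1, which draws neutrophils, had 0.559, 0.4504, 0.429 and 0.687 CPM in labelled KO, 4.91, 1.22, 1.19 and 3.52 CPM in Het and 0.525 to 1.43 CPM in wild type (log2 difference -2.29 ± 0.54 (SE), adjusted p = 0.00288). Labelled KO was below Het in every library for the 3 chemokines, while the ranges of labelled KO and wild type overlapped for each. Most members are rare, and a filter of 5 CPM left 0 called lower, while 8 were lower without the libraries above 10 CPM of Alb. Neither Het nor labelled KO was tested against wild type.

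Ptx3, a secreted pattern recognition protein, had 1.57, 0.954, 0.504 and 0.403 CPM in labelled KO, 14.8, 5.27, 3.34 and 6.92 CPM in Het and 0.674 to 1.74 CPM in wild type (log2 difference -3.19 ± 0.63 (SE), adjusted p = 7.34e-04). Of 31 matrix and fibrosis genes 2 were higher and 6 lower, where 18.1% and 16.7% of all genes were. The median log2 difference of the list was -0.17, and 4 were higher without labelled KO replicate 3. Timp1, an inhibitor of matrix proteases, had 1.998, 1.93, 1.51 and 1.25 CPM in labelled KO, 11.96, 7.24, 6.28 and 15.4 CPM in Het and 2.51 to 3.82 CPM in wild type (log2 difference -2.603 ± 0.59 (SE), adjusted p = 0.00222). Tnc (tenascin C) had 0.906, 0.662, 0.706 and 0.663 CPM in labelled KO, 5.43, 3.0, 3.19 and 5.55 CPM in Het and 1.02 to 2.12 CPM in wild type (log2 difference -2.47 ± 0.61 (SE), adjusted p = 0.00407). For Ptx3, Timp1 and Tnc the Het libraries stood apart above both other groups. Every labelled KO library also lay below every wild-type library for Timp1 and Tnc, but not for Ptx3. For all 6 lower matrix and fibrosis genes the labelled KO mean was below the wild-type mean. Collagen genes Col1a1 and Col3a1 were not called (log2 differences -0.30 and -0.67). Summed macrophage and leukocyte markers ran from 244.1 to 298.1 CPM in labelled KO and from 257.8 to 317.6 CPM in Het, and 1 of 14 was called, Itgam, the integrin of myeloid cells (3.01 CPM in labelled KO, 6.75 CPM in Het and 3.83 CPM in wild type on average, log2 difference -1.15 ± 0.31 (SE), adjusted p = 0.00658). A fit of only the 8 libraries called 5 of the 14 lower and 1 higher. In bulk heart RNA, fewer cells of a type and less RNA per cell cannot be told apart.

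Interferon response genes were lower too. Of 20 genes 14 were lower and 0 higher, with a median log2 difference of -0.66, and in 1 of the 14 every Het library lay above every wild-type library. Oas2, a sensor of double-stranded RNA, had 8.66, 5.48, 6.003 and 13.3 CPM in labelled KO, 31.8, 14.8, 24.1 and 31.8 CPM in Het and 20.7 to 24.6 CPM in wild type (log2 difference -1.56 ± 0.29 (SE), adjusted p = 4.32e-04). Ifi44 had 0.826, 1.298, 2.8 and 1.25 CPM in labelled KO and 4.94, 4.0, 3.03 and 3.78 CPM in Het (log2 difference -1.36 ± 0.39 (SE), adjusted p = 0.0104). Ifit2, of a family with close copies, had 5.92, 9.09, 13.4 and 11.8 CPM in labelled KO and 18.1, 18.8, 21.8 and 23.1 CPM in Het (log2 difference -1.01 ± 0.21 (SE), adjusted p = 0.00116). All 3 lay below Het in every labelled KO library. The count was 8 without Het replicate 1 or without labelled KO replicate 2, and 6 without the libraries above 10 CPM of Alb.

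Several membrane proteins fell steeply. Aqp4, a water channel, had 0.266, 0.4504, 0.782 and 0.261 CPM in labelled KO, 10.97, 13.97, 10.2 and 10.5 CPM in Het and 9.05 to 12.7 CPM in wild type (log2 difference -4.697 ± 0.32 (SE), adjusted p = 4.13e-09). It was called within each batch as well, at -4.62 in batch 2 and -5.29 in batch 1. Of 27 cardiac ion channels 2 were higher and 11 lower, with the same counts without any 1 of the 8 libraries. Kcnj5 and Kcnj3, the subunits of the acetylcholine-gated potassium channel of the sinus node and atria, were both lower: Kcnj3 had 19.9, 20, 32.8 and 22.1 CPM in labelled KO and 77.05, 70.8, 83.8 and 59.2 CPM in Het (log2 difference -1.63 ± 0.22 (SE), adjusted p = 1.71e-05), and Kcnj5 had 17.3, 10.4, 28.8 and 20.7 CPM in labelled KO and 71.3, 66.7, 66.4 and 44.9 CPM in Het (log2 difference -1.69 ± 0.30 (SE), adjusted p = 2.87e-04). Kcnc1, a fast potassium channel best known from neurons, was higher, with 5.195, 5.54, 4.01 and 5.78 CPM in labelled KO and 0.686, 0.756, 0.653 and 1.198 CPM in Het (log2 difference 2.63 ± 0.32 (SE), adjusted p = 5.42e-06). None of these channels overlapped between labelled KO and Het.

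Receptors that set heart rate and force were lower with the channels. Of 17 adrenergic, muscarinic and adenosine receptors 7 were lower and 0 higher, with 4 lower without the libraries above 10 CPM of Alb. Chrm2, the muscarinic receptor of the vagus nerve in the heart and the receptor that opens the channel of Kcnj3 and Kcnj5, had 14.4, 13.9, 19.2 and 14.2 CPM in labelled KO, 46.7, 61.1, 44.8 and 44.95 CPM in Het and 42.3 to 46.5 CPM in wild type (log2 difference -1.71 ± 0.15 (SE), adjusted p = 1.32e-07). Adra1b, an alpha-adrenergic receptor, had 21.8, 20.2, 20.9 and 21.9 CPM in labelled KO and 55.1, 53.1, 48.1 and 37.7 CPM in Het (log2 difference -1.19 ± 0.15 (SE), adjusted p = 6.51e-06). Both were lower in every labelled KO library. Atrial markers, summed over 10 genes, ran from 708.9 to 963.2 CPM in labelled KO and from 1075 to 1549 CPM in Het. In wild type they ran from 1126 to 1280 CPM. The log2 differences of the 10 were all negative, from -2.804 to -0.492 with a median of -1.545, and 4 were called lower. The called ones include Kcnj3, Kcnj5 and the gap junction gene Gja5 (4.37 CPM in labelled KO and 7.99 CPM in Het, log2 difference -0.85 ± 0.17 (SE), adjusted p = 6.32e-04), while the atrial light chains Myl4 and Myl7 were not called. Myl7 had 19.4, 22.6, 6.31 and 3.22 CPM in labelled KO, 18.3, 8.66, 63.8 and 26.2 CPM in Het and 5.94 to 26.2 CPM in wild type (log2 difference -1.55 ± 0.90 (SE), adjusted p = 0.193), with the highest values in Het replicates 3 and 4. Nerve and Schwann cell markers moved the same way, with 4 of 8 lower and sums of 14.0 to 18.3 CPM in labelled KO against 21.8 to 29.5 CPM in Het. The part of atrial tissue or nerve in the channel and receptor values was not tested.

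Of 20 calcium cycling genes 3 were higher and 6 lower. Casq1, a calcium store protein of fast skeletal muscle, had 2.16, 3.26, 2.55 and 2.84 CPM in labelled KO and 12.9, 9.32, 6.699 and 7.49 CPM in Het (log2 difference -1.75 ± 0.25 (SE), adjusted p = 2.43e-05), and Camk2b, a calcium-dependent kinase, had 12.8 CPM in labelled KO and 25.4 CPM in Het on average (log2 difference -0.95 ± 0.20 (SE), adjusted p = 0.00109). Of 26 sarcomere genes 2 were higher and 5 lower, where 18.1% and 16.7% of all genes were, and the median log2 difference was -0.04. The count of lower sarcomere genes was 2 without labelled KO replicate 1. Tcap (telethonin) had 438, 734, 883 and 804 CPM in labelled KO and 1331, 1259, 1436 and 982 CPM in Het (log2 difference -0.84 ± 0.25 (SE), adjusted p = 0.0149), with no call without labelled KO replicate 1 (log2 difference -0.66).

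Of 18 cardiac stress and fetal genes 2 were higher and 2 lower. The natriuretic peptide genes Nppa and Nppb and the slow myosin gene Myh7 were not called. Nppa had 141, 204, 200.3 and 156 CPM in labelled KO and 241, 151, 284 and 444 CPM in Het (log2 difference -0.76 ± 0.62 (SE), adjusted p = 0.358). Nppb had 101, 304, 364 and 291 CPM in labelled KO and 218, 171, 162 and 298 CPM in Het (log2 difference 0.37 ± 0.35 (SE), adjusted p = 0.425). Myh7 had 3223, 4353, 3518 and 3465 CPM in labelled KO and 3962, 4192, 4356 and 3882 CPM in Het (log2 difference -0.17 ± 0.13 (SE), adjusted p = 0.296). The groups overlapped for all 3. The lower ones of the list were Ankrd1 and Ctgf, both responsive to mechanical stretch. Ankrd1 had 354, 512, 837 and 558 CPM in labelled KO, 1693, 2050, 1650 and 2745 CPM in Het and 1282 to 2473 CPM in wild type (log2 difference -1.797 ± 0.36 (SE), adjusted p = 7.37e-04), and Ctgf had 152, 96.8, 149 and 96.04 CPM in labelled KO and 313, 405, 302 and 1365 CPM in Het (log2 difference -2.08 ± 0.49 (SE), adjusted p = 0.00276), with Het replicate 4 far above the other Het libraries. The higher ones were Uck2, a nucleoside kinase (77.98 CPM in labelled KO and 42.8 CPM in Het, log2 difference 0.91 ± 0.26 (SE), adjusted p = 0.00956), and Gata4, a cardiac transcription factor (131 CPM in labelled KO and 108 CPM in Het, log2 difference 0.28 ± 0.11 (SE), adjusted p = 0.0499), with 1 member of the list higher when any single library other than Het replicate 2 was left out.

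Hypoxia-inducible factor targets were lower in 7 of 20 cases and higher in 3. Egln3, one of the oxygen sensors that mark the factor for destruction, had 10.4, 10.4, 15.8 and 12.6 CPM in labelled KO, 57.6, 38.9, 39 and 43.4 CPM in Het and 43.7 to 50.5 CPM in wild type (log2 difference -1.86 ± 0.15 (SE), adjusted p = 4.19e-08). Ankrd37 had 0.266, 0.185, 0.353 and 0.995 CPM in labelled KO and 3.703, 2.22, 2.13 and 4.28 CPM in Het (log2 difference -2.67 ± 0.40 (SE), adjusted p = 3.99e-05). P4ha1, which hydroxylates collagen, had 23.1 CPM in labelled KO and 46.4 CPM in Het on average (log2 difference -1.01 ± 0.15 (SE), adjusted p = 3.46e-05), while Vegfa, the vessel growth factor of the same list, was higher (465 CPM in labelled KO and 261 CPM in Het, log2 difference 0.83 ± 0.13 (SE), adjusted p = 7.47e-05). The 3 lower genes did not overlap between groups.

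Growth and clock signals were mixed. Of 23 genes that restrain mTORC1 or serve autophagy 7 were higher and 3 lower: besides Sesn2, Fnip2 had 89.7, 86.6, 64.7 and 68.4 CPM in labelled KO and 30.1, 18.9, 24.5 and 34.2 CPM in Het (log2 difference 1.46 ± 0.19 (SE), adjusted p = 9.84e-06), and Ddit4l was lower (0.799 CPM in labelled KO and 2.54 CPM in Het, log2 difference -1.73 ± 0.39 (SE), adjusted p = 0.00196). Of 20 FOXO, insulin and atrophy genes 3 were higher and 4 lower, with 7 higher without Het replicate 4. Cdkn1a, the cell cycle inhibitor p21, had 560.4, 522, 334 and 226 CPM in labelled KO and 80.7, 188, 101 and 187 CPM in Het (log2 difference 1.501 ± 0.34 (SE), adjusted p = 0.00221). Of 20 cholesterol synthesis genes 1 was higher, the gateway enzyme Hmgcs1 (51.7 CPM in labelled KO and 34.6 CPM in Het, log2 difference 0.56 ± 0.08 (SE), adjusted p = 1.55e-05), and 8 were lower, with Dhcr7 at -0.55 and Mvk at -0.50. That count was 5 without any 1 of 4 libraries (labelled KO replicates 1 and 4, Het replicates 1 and 2) and 2 within batch 2. Clock genes were called in 4 of 18 cases, with Ciart higher (8.15 CPM in labelled KO and 2.69 CPM in Het, log2 difference 1.604 ± 0.30 (SE), adjusted p = 4e-04) and Hlf (-1.17) and Bhlhe40 (-0.92) lower. The 2 higher ones became 4 or 5 without labelled KO replicate 3 or 4 or Het replicate 4. The plot of lower genes sets those with raised Het values beside those with Het near wild type.

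**Figure D4:**
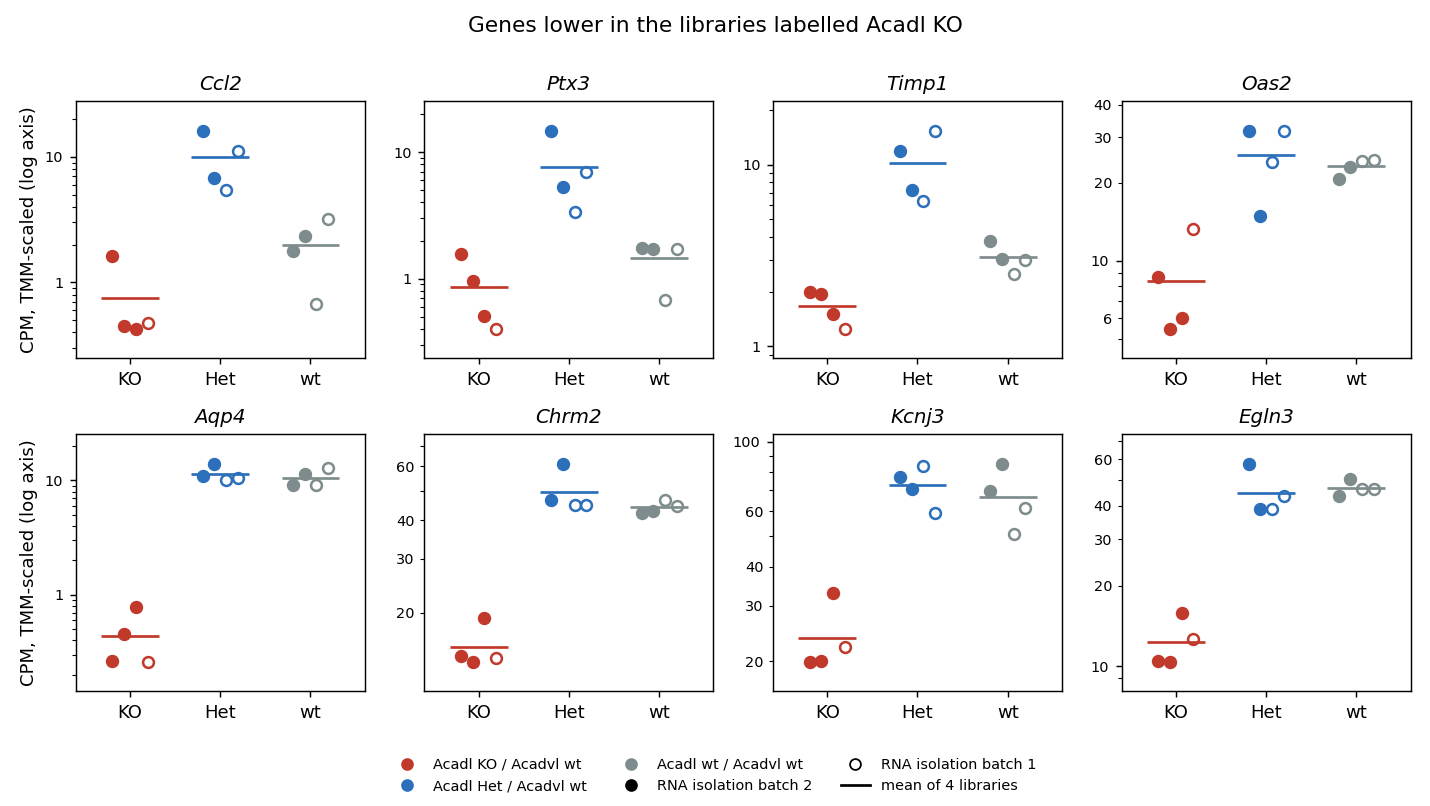
Level of 8 genes that were lower in the libraries labelled Acadl KO, in TMM-scaled CPM on a log axis, with 1 point per library and a line at the mean of 4, filled for RNA isolation batch 2 and open for batch 1. For Ccl2, Ptx3 and Timp1 every Het library lies above every wild-type library, while for Oas2, Aqp4, Chrm2, Kcnj3 and Egln3 the Het and wild-type points overlap and the labelled KO points lie below both.

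Some of the largest differences lay outside the lists. Ptgds, which makes prostaglandin D, had 1231, 1546, 803 and 1153 CPM in labelled KO and 162, 231, 158 and 263 CPM in Het (log2 difference 2.54 ± 0.40 (SE), adjusted p = 1.03e-04). Grin2c, a subunit of the NMDA receptor, had 11.8, 12.4, 5.09 and 12 CPM in labelled KO and 0.8503, 1.17, 0.173 and 1.08 CPM in Het (log2 difference 3.72 ± 0.46 (SE), adjusted p = 6.92e-06). Lrrc52, an auxiliary subunit of potassium channels, had 25.1, 29.6, 2.598 and 7.29 CPM in labelled KO and 2.44, 2.49, 1.19 and 2.45 CPM in Het (log2 difference 2.78 ± 0.68 (SE), adjusted p = 0.003699), and Lrrc10b had 4.21, 8.08, 0.933 and 2.32 CPM in labelled KO and 0.302, 0.293, 0.192 and 0.475 CPM in Het (log2 difference 3.53 ± 0.83 (SE), adjusted p = 0.00282). For both of these the spread within labelled KO was wide, with replicates 1 and 2 high and replicate 3 lowest. Among the falls, B3galt2, a galactosyltransferase, had 0.213, 0.106, 0.479 and 0.284 CPM in labelled KO and 8.42, 2.44, 5.55 and 2.51 CPM in Het (log2 difference -4.18 ± 0.65 (SE), adjusted p = 7.14e-05). Itgb6, an integrin subunit that activates TGF-beta, had 1.32 CPM in labelled KO and 9.97 CPM in Het on average, Gal3st3, a sulfotransferase, 1.07 CPM in labelled KO and 8.24 CPM in Het, Sec14l5 0.301 CPM in labelled KO and 2.405 CPM in Het and AI593442 0.209 CPM in labelled KO and 2.402 CPM in Het.

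The same contrast within Acadvl Het hearts (labelled Acadl KO / Acadvl Het, n = 5, against Acadl Het / Acadvl Het, n = 3) asked whether the difference depends on the Acadvl allele. The interaction, the difference in Acadvl wt minus that in Acadvl Het, was called for 0 of 15804 genes (0%) by edgeR, with 817 genes at an unadjusted p under 0.05. Chance alone puts about 1 in 20 genes under that unadjusted threshold. Leaving out the batch term gave 45 calls, and leaving out labelled KO replicate 1, labelled KO replicate 4 or Het replicate 4 gave 58, 39 and 12. A miss of the threshold with 3 to 5 libraries a group does not show that the differences were equal. All 3 Acadl Het / Acadvl Het libraries stood above 10 CPM of Alb, at 158.5, 19.75 and 39.66 CPM. The labelled Acadl KO / Acadvl Het libraries had 0.101 to 1.04 CPM. The selection without Alb-rich libraries therefore leaves no Acadl Het / Acadvl Het library, and the interaction was not tested in it.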

How the data were processed

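Poly-A-selected RNA from 24 mouse heart samples was sequenced as single-end reads. The authors deposited whole-number read counts per gene, 1 file per library, for 24421 genes. Per the submitters' processing notes reads were aligned with STAR 2.5.1b to mm10 and counted with featureCounts 1.5.3. Per the file headers the deposited counts came from featureCounts 1.5.2, without strand, with a read over several genes counted for each. Reads of a gene and an antisense partner, and of near-identical copies, therefore cannot be told apart.

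From these counts edgeR 4.0.16 (R 4.3.3) fitted genotype and batch on all 24 libraries (filterByExpr, TMM factors, robust quasi-likelihood), with Benjamini-Hochberg adjustment over 15804 genes at a threshold of 0.05. The SE is the log2 difference divided by the root of its F value. The scripts were tested on simulated data. The sample titles carry numbers whose meaning is not stated, so replicates are numbered in accession order and not paired. Within a group, libraries differed by 17.5 to 47.0 times the sampling noise (chi-square per degree of freedom).

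The comparison, its 54 gene lists and their members were chosen with earlier results of these data known. Named were 19 fixed genes, the 10 largest rises and falls without overlap at 1 CPM or more, and up to 3 called members per list with the largest differences, or the most abundant member where none was called: 152 genes, 142 of them called, of which some are not reported here. Chosen after their values were seen were Lancl1, Asns, Psph, Slc7a11, Pck2, Shmt2, Aldh1l2, Kars, Qars, Wars, Aimp1, Gclm, Hspa5, Col1a1, Col3a1, Vegfa, Gata4, Myl4, Myl7, Adipoq and Plin1, and the search of the tRNA synthetase promoters. Alternatives were other scaling, filters, sample choices, limma 3.58.1 (voom) and DESeq2 1.42.0.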

Additional observations from a re-analysis of the deposited data

Results flagged for a closer look

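In 19 of 304 groups of 4 libraries, 2 for each of the 152 named genes, the highest or lowest library stood apart from the other 3 by a gap, as a share of the group's range, above Dixon's 95% critical value for 4 samples. Chance flags about 1 in 20 groups, and 19 of 304 is 6.25%. Each value below is the gap as a share of the range.

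In libraries labelled Acadl KO, replicate 1 was high for Ccl2 (0.963) and low for Actc1 (0.8498). Replicate 3 was high for Chrm2 (0.892), Kcnj3 (0.8292) and Pdk1 (0.869) and low for Grin2c (0.913). Replicate 4 was high for Bcat1 (0.854).

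In Acadl Het libraries, replicate 4 was high for Cars (0.868), Ctgf (0.903), Gnl3 (0.987), Plin2 (0.859) and Wdr43 (0.919), and low for Cenpa (0.851) and Hmgcs1 (0.879). Replicate 1 was high for Aacs (0.833), and replicate 2 for Chrm2 (0.888), Hspa9 (0.950) and Pdhb (0.860). Replicate 3 was low for Lrrc52 (0.964). Gnl3, Wdr43, Cars and Plin2 are genes that were higher in labelled KO, and Het replicate 4 lay below every labelled KO library for each of them.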

How the results depend on the processing

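Against 5506 genes called, the other settings called 4090 to 5826 in all, with 2 exceptions. How many were the same genes is not given here. Within RNA isolation batch 1, with 1 library labelled Acadl KO against 2 Het and its spread assumed like that of the other groups, 181 genes were called. Without the libraries above 10 CPM of Alb, which left 2 labelled KO libraries, 3577 were called. Leaving out 1 of the 8 libraries at a time gave 4283 to 5617. The smaller number of labelled KO libraries is part of how both low counts were built, and other causes were not tested. The interaction was called for 0 genes under RLE factors and without an Acadl Het / Acadvl Het library in which Rn45s, a ribosomal RNA precursor, took 17.3% of the counts, for 45 without a batch term, and for 0 to 58 as single libraries were left out, with 58 without labelled KO replicate 1, 39 without labelled KO replicate 4 and 12 without Het replicate 4.

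Of the 142 named genes called, 20 lost the call within batch 2 and 19 in a fit of only the 8 libraries. Without the libraries above 10 CPM of Alb 19 lost it, and without a single library 4 to 15. Most lost it within batch 1, where labelled KO had 1 library. Of the 142 genes 18 lost it without some single library. Their direction turned in 4 cases, all within batch 1: Atf3 (-0.24), Irs2 (-0.74), Pdk4 (-0.0578) and Psat1 (-0.17). Genes that were not called also turned: Alb (-4.82 within batch 1, -4.37 without its high libraries and -0.34 by limma voom), Eif2ak3 (0.0485 within batch 1), Trf (0.0311 within batch 2), and Msln (-0.028) and Nppb (-0.16) without the libraries above 10 CPM of Alb. Het values of a few counts per library limit the folds of Fgf21 and the rare chemokines. No paired analysis was possible because the numbers in the sample titles have no stated meaning and no label ties a library of one group to one of another.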

Other observations

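Smooth muscle, fibroblast and nerve markers added a few called genes to the account. Of 12 smooth muscle and pericyte markers 2 were lower and 0 higher, where 34.8% of all genes were called. The log2 differences of that list ran from -1.07 to 0.92, with a median of 0.12. Acta2, the smooth muscle actin, had 43.4, 38.5, 23.2 and 61.6 CPM in labelled KO and 106, 79.2, 73.9 and 94.5 CPM in Het, without overlap (log2 difference -1.07 ± 0.28 (SE), adjusted p = 0.00577), and the potassium channel subunit Abcc9 of the same list had 334 CPM in labelled KO and 412 CPM in Het on average (-0.32). The summed markers of smooth muscle cells and pericytes ran from 3871 to 4277 CPM in labelled KO and from 3904 to 4390 CPM in Het. The Schwann cell genes Sox10 and Cnp were lower without overlap, at 1.06 CPM in labelled KO and 2.09 CPM in Het for Sox10 and 6.33 CPM in labelled KO and 10.8 CPM in Het for Cnp (log2 differences -0.97 and -0.75). Cenpa, a centromeric histone, was lower (18.9 CPM in labelled KO and 36.6 CPM in Het, log2 difference -0.94 ± 0.21 (SE), adjusted p = 0.00179), the 1 of 12 cell division genes that was called.

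Immediate early and insulin genes differed by member. Nr4a3, an orphan nuclear receptor, had 25.3, 21.99, 47.8 and 9.305 CPM in labelled KO and 4.96, 11.7, 2.73 and 8.42 CPM in Het, with overlap (log2 difference 1.71 ± 0.49 (SE), adjusted p = 0.0106). Ier3 had 8.18, 8.37, 12.2 and 11.6 CPM in labelled KO and 37.5, 24.9, 25.7 and 34.8 CPM in Het, without overlap (log2 difference -1.58 ± 0.25 (SE), adjusted p = 7.15e-05). Wild type had 19.1 to 24.3 CPM of Ier3, below every Het library and above every labelled KO library. Irs2, an adaptor of the insulin receptor, had 168, 105, 177 and 22.99 CPM in labelled KO and 19.9, 47.5, 32.4 and 44.7 CPM in Het (log2 difference 1.398 ± 0.53 (SE), adjusted p = 0.0464), and Pik3ip1, an inhibitor of the kinase downstream of it, had 33.7 CPM in labelled KO and 75.1 CPM in Het on average (log2 difference -1.21 ± 0.32 (SE), adjusted p = 0.00671). The call for Irs2 was lost without any 1 of 6 libraries (log2 difference 1.06 to 1.47). Sri (sorcin), a calcium-binding protein, was higher (58.9 CPM in labelled KO and 40.6 CPM in Het, log2 difference 0.53 ± 0.11 (SE), adjusted p = 0.00102).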
